A study of Mus musculus with 4 samples.

Results

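The genes of sterol and fatty acid synthesis examined here are 28 of the 20672 genes listed in the feature tables of 4 single-cell libraries of mouse kidney. They were taken by symbol from a fixed list, not by their measured values, and all 28 were found. Of these, 7 encode the mevalonate steps (Acat2, Hmgcs1, Mvk, Pmvk, Mvd, Idi1 and Fdps) and 10 the steps from squalene to cholesterol (Fdft1, Sqle, Lss, Cyp51, Msmo1, Nsdhl, Hsd17b7, Ebp, Sc5d and Dhcr7), and these 17 are called the sterol synthesis genes below. Another 4 encode regulators and a transfer protein (Srebf1, Srebf2, Insig1 and Stard4), and 7 act in fatty acid synthesis (Acly, Acaca, Fasn, Elovl6, Scd1, Scd2 and Me1).

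The study profiled wild-type kidneys by 3′ droplet sequencing, with 1 library per condition: E15.5 and P0 kidneys of the ICR strain, E17.5 kidneys of C57BL/6 mice, and C57BL/6N kidneys that were explanted at E12.5 and placed into the epididymal fat of a host for 12 days. The host is labelled C57BL/6N on the sample, while the design text names NOD mice that lack immune function, and this conflict was not resolved. How many animals went into each library is not given in the sources used here. P0 was therefore compared with E15.5, which shares its strain, and the transplant with both P0 and E17.5, of which E17.5 is nearer in strain. The transplant also differs from both in age. Age, strain and transplantation cannot be told apart in these comparisons.

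Cholesterol and its precursors are built from acetyl-CoA, first to mevalonate and isoprenoids, then through squalene and a series of ring modifications. The enzymes are controlled together: SREBP-2, encoded by Srebf2, and SREBP-1, encoded by Srebf1, are membrane-bound factors that reach the nucleus when sterols are scarce, and the Insig proteins hold them back when sterols are plentiful. SREBP factors bind sterol regulatory elements and E-boxes and work with NF-Y and Sp1 at nearby sites. In the kidney, proximal tubule cells are rich in membrane and mitochondria and obtain much of their energy from fatty acids.

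Promoters of 22 of the 28 genes were matched in a RefSeq table of GRCm38.p6, in 28 windows of 300 bases that run from 250 bases before a start site to 50 bases after it. The windows of 5 genes are printed 5′ to 3′ because these genes stood at the extremes of the comparisons below. Capitals mark the sterol regulatory element (TCACNCCAC), the E-box (CACGTG) and the NF-Y box (CCAAT, or ATTGG on the other strand).
Hmgcs1 (chr13:119690101-119690400, plus strand): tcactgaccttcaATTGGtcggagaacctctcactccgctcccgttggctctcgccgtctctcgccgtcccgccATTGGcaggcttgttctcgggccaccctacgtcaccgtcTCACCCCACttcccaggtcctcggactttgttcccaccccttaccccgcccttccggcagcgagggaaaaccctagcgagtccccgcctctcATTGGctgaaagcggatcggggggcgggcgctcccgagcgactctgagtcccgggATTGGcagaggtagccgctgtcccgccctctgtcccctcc
Idi1 (chr13:8885356-8885655, plus strand): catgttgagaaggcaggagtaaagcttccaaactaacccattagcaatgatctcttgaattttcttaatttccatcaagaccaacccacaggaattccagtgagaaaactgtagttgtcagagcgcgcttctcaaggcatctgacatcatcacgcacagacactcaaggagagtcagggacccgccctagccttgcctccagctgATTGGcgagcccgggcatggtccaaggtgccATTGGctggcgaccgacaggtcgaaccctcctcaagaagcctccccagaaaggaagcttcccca
Cyp51 (chr5:4104648-4104947, minus strand): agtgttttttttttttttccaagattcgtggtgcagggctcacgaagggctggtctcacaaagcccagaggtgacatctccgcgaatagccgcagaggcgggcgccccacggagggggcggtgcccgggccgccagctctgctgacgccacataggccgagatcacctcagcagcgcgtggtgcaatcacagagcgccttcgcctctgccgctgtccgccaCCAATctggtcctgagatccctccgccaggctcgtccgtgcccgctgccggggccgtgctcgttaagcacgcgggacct
Msmo1 (chr8:64733529-64733828, minus strand): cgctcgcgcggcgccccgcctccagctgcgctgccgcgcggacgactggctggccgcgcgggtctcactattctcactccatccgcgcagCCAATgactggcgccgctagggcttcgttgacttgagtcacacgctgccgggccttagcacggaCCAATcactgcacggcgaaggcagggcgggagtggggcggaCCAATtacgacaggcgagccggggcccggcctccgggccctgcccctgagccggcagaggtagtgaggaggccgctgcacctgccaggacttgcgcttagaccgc
Insig1 (chr5:28071162-28071461, plus strand): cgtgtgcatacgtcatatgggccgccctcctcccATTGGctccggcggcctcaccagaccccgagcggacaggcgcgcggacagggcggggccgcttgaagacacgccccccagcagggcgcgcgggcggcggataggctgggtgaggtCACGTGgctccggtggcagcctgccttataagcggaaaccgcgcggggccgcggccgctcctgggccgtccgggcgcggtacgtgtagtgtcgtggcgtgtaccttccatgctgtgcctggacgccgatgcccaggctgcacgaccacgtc

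All motifs were searched on both strands, and no listed motif contains another. The NF-Y box was present in 20 of the 28 promoters (71.4%), against 37.4% of all 32851 promoters in the table. Among the matched sterol synthesis genes, 13 of 14 held it in any window, against 41.1% of all genes, the exception being Acat2. Counted by promoter, the NF-Y box was present in 13 of their 17 windows (76.5%). It occurred 4 times in the Hmgcs1 window, 3 times in that of Msmo1 and 2 times in that of Idi1. The Sp1 box (GGGCGG) was present in 20 of 28 promoters (71.4%), against 35.7% of all and 49.0% of the promoters of measured genes. The E-box was found in Hsd17b7, Sc5d, Dhcr7 and Insig1 (14.3% of promoters, against 7.15% of all). The sterol regulatory element was found only in Hmgcs1 among these windows, or 3.57% against 1.24% of all. These are letter matches in a fixed window and were not tested as binding sites.

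After filtering, 21695 cells were used, with 3463 from E15.5, 4396 from E17.5, 7568 from P0 and 6268 from the transplant. Median depth differed, at 22585 unique molecular identifiers (UMIs) per cell in E15.5 and between 6276.5 and 9885.5 in the others, so levels are given as UMI counts summed over cells and scaled to a library total of 1000000 (CPM). Pairs of libraries shared 19 to 60 cell barcodes (0.549% to 1.05% of the smaller library). Each interval is an exact 95% interval for counting error alone. With 1 library per condition no test between conditions was possible, and spread between animals was not measured. A gene is counted as past the threshold when its CPM differed at least 2-fold with 20 or more UMIs over both libraries. Lists of other genes also differed between libraries: the 10 dissociation stress genes summed to 1794 CPM in E15.5 and 5704 to 6337 CPM in the other libraries, and the 10 proliferation genes to 1442, 1301, 752 and 270 CPM in E15.5, E17.5, P0 and the transplant. Their part in the results below was not tested. The 7 adipocyte markers summed to 0.517 to 2.02 CPM and the 6 adrenal cortex markers to 1.11 to 2.74 CPM in every library, and no cell passed the gate for adipocytes.

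In whole libraries, the transplant held the lowest levels of most of these genes and E15.5 stood below E17.5 and P0 for the sterol steps. The 17 sterol synthesis genes summed to 633 CPM in E15.5 (628 to 638), 1070 CPM in E17.5 (1059 to 1080), 1036 CPM in P0 (1029 to 1043) and 613 CPM in the transplant (606 to 619). The 7 fatty acid synthesis genes summed to 376, 531, 309 and 251 CPM in the same order. The sums for sterol synthesis were thus close in E17.5 and P0 and lower in the other pair, whereas the fatty acid sum in P0 lay below that in E15.5. In whole libraries, a different mix of cell types and a different level per cell cannot be told apart, and the classes below separate them only in part.

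**Figure D1:**
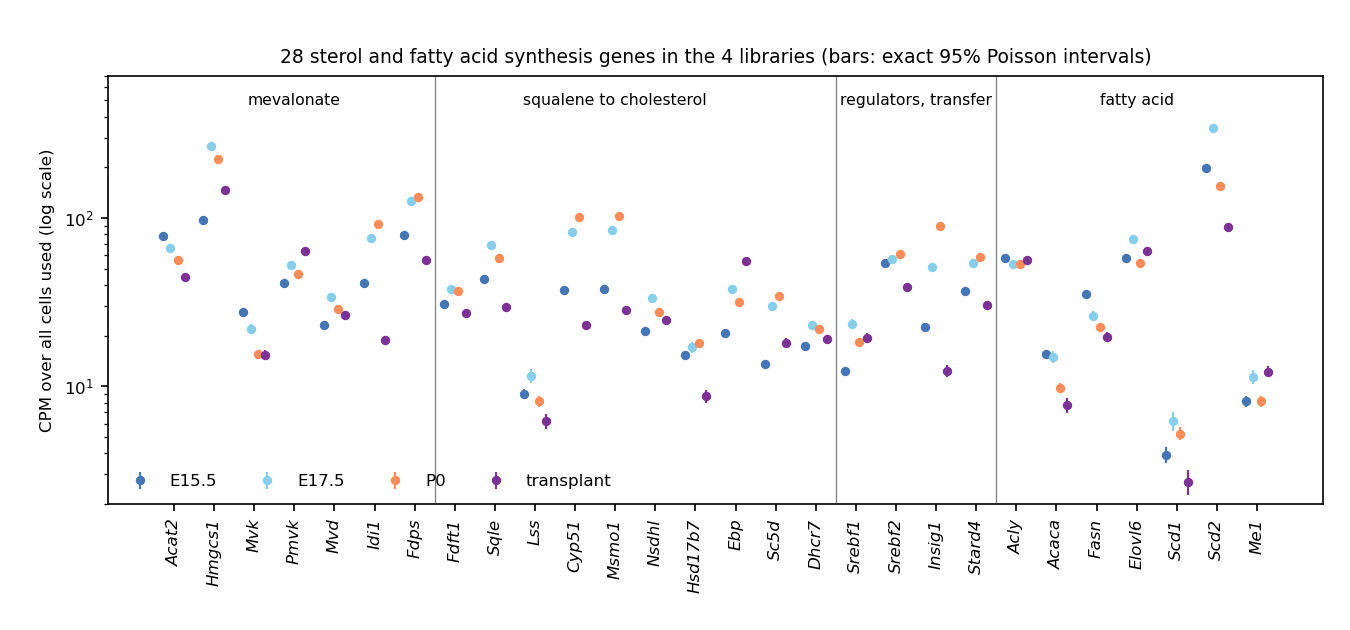
CPM of each of the 28 genes over all cells used in the 4 libraries (log axis, exact 95% Poisson intervals), ordered by pathway step. Insig1, Idi1, Cyp51 and Msmo1 are lowest in the transplant, at 12.3, 18.8, 23.1 and 28.3 CPM, while Ebp is highest there at 55.6 CPM.

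Between E15.5 and P0, a subset of sterol genes together with Insig1 was higher at P0, and fatty acid synthesis genes were mostly level or lower. Insig1, which retains the SREBP complex in the endoplasmic reticulum, was at 22.6 CPM in E15.5 and 89.2 CPM in P0, 3.94-fold higher (3.75 to 4.14). Cyp51, the lanosterol demethylase, went from 37.1 to 101 CPM, 2.72-fold higher (2.61 to 2.84). Msmo1, which oxidises the methyl groups at the next steps, went from 37.6 to 102 CPM, 2.70-fold higher (2.60 to 2.82). Sc5d, Hmgcs1 and Idi1 completed the set past the threshold, at 2.55-fold, 2.31-fold and 2.23-fold higher. The lowest ratios were those of Mvk, the mevalonate kinase (27.5 CPM in E15.5 and 15.5 CPM in P0, ratio 0.564), of Acaca, the acetyl-CoA carboxylase of the cytosol (15.5 and 9.77 CPM, ratio 0.631), and of Fasn, the fatty acid synthase (35.3 and 22.5 CPM, ratio 0.639).

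Of the 28 genes, 19 had a higher CPM at P0 and 9 a lower one. Past the threshold were 6 higher (background 12.8% of 15078 genes, against 21.4% of the members) and 0 lower (background 8.22%). Counted in either direction, 21.4% of the members and 21.1% of all genes passed, so the share past the threshold was that of the background and only its direction was uneven. The median log2 ratio was 0.39 over the sterol synthesis genes, 0.62 over the 4 regulators and transfer genes, -0.12 over the fatty acid synthesis genes and -0.02 over all genes. All 10 dissociation stress genes were higher at P0, with a median log2 ratio of 2.01.

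Among cells gated on the same markers, the size of the difference varied from class to class. A cell was placed in a class when, after thinning to 2000 UMIs, it held at least 3 UMIs from 2 or more markers of that class and at least 2 times as many as for any other class. Cells under that depth were left out. These classes are ranges on a marker score, and some cells stood at the minimum of 3 UMIs. Nephron progenitors had 107 of 448 cells at the minimum in E15.5, 88 of 393 in E17.5 and 98 of 296 in P0. In the proximal tubule gate these were 29 of 186, 23 of 681, 25 of 774 and 8 of 1027 cells in E15.5, E17.5, P0 and the transplant. In classes of 50 or more cells, the median count of any other class's markers was at most 4 UMIs, in podocyte-gated cells of the transplant, where the median of their own markers was 21 UMIs.

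In cells gated on ureteric and collecting duct markers, Insig1 and 5 sterol synthesis genes were at least 2-fold higher at P0 than in E15.5. Insig1 was at 15.6 CPM there in E15.5 and 141 CPM in P0, 9.04-fold higher (6.95 to 11.9). Cyp51 was at 35.3 and 178 CPM (5.04-fold), Sc5d at 18.7 and 84.5 CPM (4.53-fold), Msmo1 at 42.2 and 183 CPM (4.34-fold), Idi1 at 40.6 and 159 CPM (3.92-fold) and Hmgcs1 at 83.6 and 280 CPM (3.35-fold). In the same cells Mvk was lower, at 26.6 and 11.1 CPM (2.40-fold lower, 1.71 to 3.39), and all 6 fatty acid synthesis genes that reached 20 UMIs were below their E15.5 level. The Mvk ratio ran from 0.388 to 0.504 over the processing alternatives, so it missed the 2-fold threshold in some. In total 6 members were past the threshold upward in this class (background 8.12% of 11067 genes) and 1 downward (background 14.8%).

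In cells gated on nephron progenitor markers, Insig1 was at 19.0 CPM in E15.5 and 155 CPM in P0 (8.14-fold, 6.99 to 9.52), Msmo1 at 25.5 and 118 CPM (4.62-fold) and Cyp51 at 22.8 and 96.3 CPM (4.23-fold). There 7 members passed upward (background 6.30%) and 0 downward (background 12.0%, either way 18.3%), and Mvk had the lowest ratio at 0.502. In early nephron cells 4 passed upward (background 6.35%), with Insig1 at 3.52-fold, and 1 downward (background 6.25%), Fasn at 2.20-fold lower.

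Proximal tubule and stromal cells differed from this pattern. In proximal tubule cells 2 members passed upward (background 7.43%), Scd1 at 0.928 and 10.4 CPM (11.2-fold, 4.70 to 35.2, from 5 UMIs in E15.5) and Fdps at 76.3 and 154 CPM (2.02-fold), and none downward (background 8.59%). The Fdps ratio in these cells ran from 1.78 to 2.12 over the processing alternatives, so it fell under the 2-fold threshold in some. Insig1 was only 1.57-fold higher there (1.32 to 1.86). In stroma Insig1 alone passed upward (2.41-fold, background 7.35%), and 7 passed downward (background 10.3%), led by Lss, the cyclase that makes lanosterol, at 4.02-fold lower (1.89 to 10.2). In podocytes 2 passed upward (background 8.57%) and 0 downward (background 5.23%), with Insig1 at 3.30-fold and Acat2 lowest, at a ratio of 0.617, among members with 50 or more UMIs. In endothelium 5 passed, 2 of them upward and 3 downward (background either way 22.2%, downward 9.73%), with Insig1 at 2.72-fold and Fasn at 2.63-fold lower.

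Over the 7 classes measured in both libraries, Insig1, Hmgcs1, Cyp51, Msmo1 and Sc5d were higher at P0 in all 7, and Mvk and Fasn lower in all 7. The class median of the sterol synthesis genes ran from -0.26 in stroma to 0.64 in ureteric and collecting duct cells on the log2 scale, and that of the fatty acid synthesis genes from -0.80 in stroma to 0.33 in nephron progenitors. Differences between classes were not tested. The dissociation stress genes had medians between 1.09 and 3.33 in these classes, lowest in nephron progenitors and highest in endothelium. Their part in the differences of the members was not tested.

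**Figure D2:**
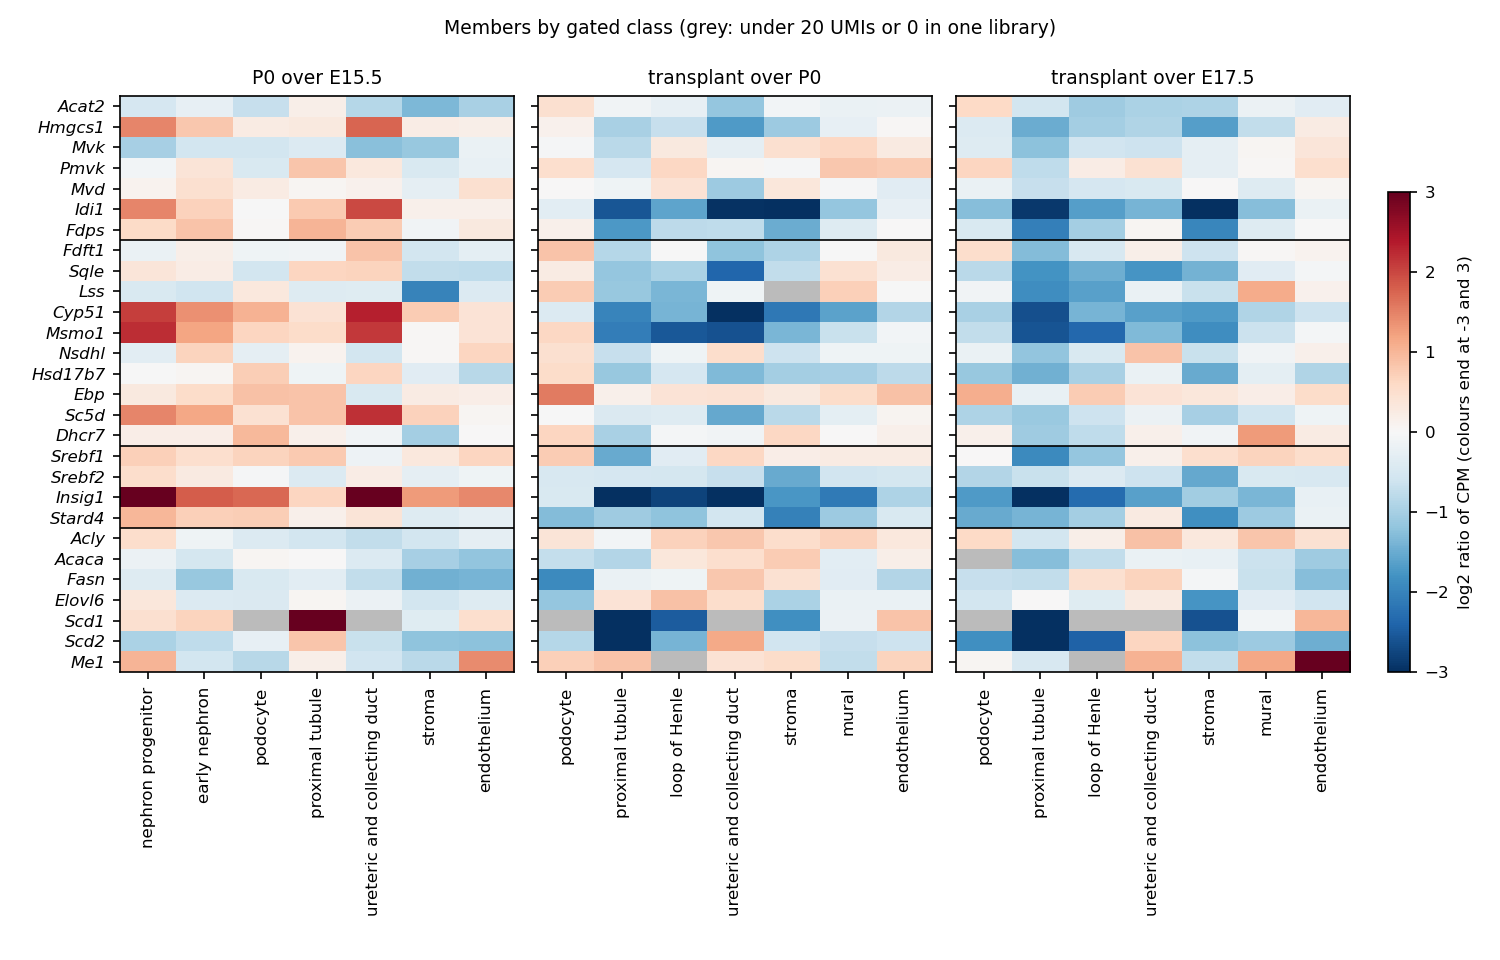
Log2 ratio of CPM for the 28 genes (rows) by gated class (columns) in the 3 comparisons, with red for higher and blue for lower in the first-named library and grey where no ratio was formed. In P0 over E15.5 the Insig1 row is red in all 7 classes, and in transplant over E17.5 the proximal tubule column is blue for 27 of 28 genes.

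Insig1 and 5 sterol synthesis genes, led by Idi1, Cyp51 and Msmo1, were at least 2-fold lower in the transplant than in P0. Insig1 was at 89.2 CPM in P0 and 12.3 CPM in the transplant, 7.24-fold lower (6.68 to 7.85). Idi1, the isopentenyl diphosphate isomerase, was at 91.5 and 18.8 CPM, 4.87-fold lower (4.56 to 5.21). Cyp51 was at 101 and 23.1 CPM, 4.37-fold lower (4.12 to 4.64). Msmo1, Fdps and Hsd17b7 were also past the threshold, at 3.60-fold, 2.40-fold and 2.06-fold lower. Ebp, the sterol isomerase, had the highest ratio, with 31.5 CPM in P0 and 55.6 CPM in the transplant (1.76-fold, 1.67 to 1.86). Me1, the cytosolic malic enzyme that supplies NADPH, followed at 1.50-fold (8.15 and 12.2 CPM), and Pmvk, the phosphomevalonate kinase, at 1.37-fold (46.3 and 63.4 CPM).

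Against P0, 22 members had a lower CPM in the transplant and 6 a higher one. Of these, Mvk, Nsdhl, Dhcr7, Srebf1, Acly and Elovl6 had ratios on both sides of 1 over the processing alternatives. The threshold was passed downward by 6 members (21.4%, background 9.08% of 15065 genes) and upward by 0 (background 21.1%). In either direction the members' share was below the background of 30.2%. The median log2 ratio was -0.45 for the sterol synthesis genes, -0.79 for regulators and transfer and -0.20 for fatty acid synthesis. The median over all genes was itself 0.36, so relative to it the sterol and fatty acid medians were -0.80 and -0.55.

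Against E17.5 the transplant was lower for 24 of 28 members. Insig1 was at 50.8 CPM in E17.5 (4.12-fold lower in the transplant, 3.77 to 4.51) and Idi1 at 75.5 CPM (4.02-fold lower, 3.74 to 4.33). Scd2, a stearoyl-CoA desaturase that makes monounsaturated fatty acids, was at 344 CPM in E17.5 and 88.5 CPM in the transplant, 3.89-fold lower (3.77 to 4.03). The threshold was also passed by Cyp51 (3.55-fold), Msmo1 (3.01-fold), Sqle (2.33-fold), Scd1 (2.31-fold) and Fdps (2.26-fold), all lower. That made 8 members downward (28.6%, background 8.19% of 14651 genes) and 0 upward (background 16.3%). The highest ratios were those of Ebp at 1.47, Pmvk at 1.21 and Me1 at 1.08, the interval of the last including 1 and its ratio running from 0.930 to 1.21 over the processing alternatives. The medians were -0.72 for sterol synthesis, -0.68 for regulators and transfer, -0.41 for fatty acid synthesis and 0.21 for all genes. The 2 transplant comparisons share the transplant library, and the P0 library is shared with the comparison to E15.5, so they are not independent of each other. The dissociation stress genes had median log2 ratios of -0.12 against P0 and 0.14 against E17.5.

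Proximal tubule cells carried the highest sterol gene sum of any class in every library. The 17 genes summed there to 1354 CPM in E15.5 (1323 to 1385), 2481 CPM in E17.5 (2444 to 2518), 1778 CPM in P0 (1755 to 1801) and 900 CPM in the transplant (884 to 915). The next class was the early nephron in E15.5 and E17.5 (819 and 1280 CPM), ureteric and collecting duct cells in P0 (1404 CPM) and podocytes in the transplant (574 CPM). The intervals of the highest and the next class did not overlap in any library. Hmgcs1 alone made up 496, 873, 609 and 309 CPM of the proximal tubule sums in E15.5, E17.5, P0 and the transplant. In ureteric and collecting duct cells of P0 it made up 280 CPM. Whether the order of the classes holds without Hmgcs1 was not tested.

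**Figure D3:**
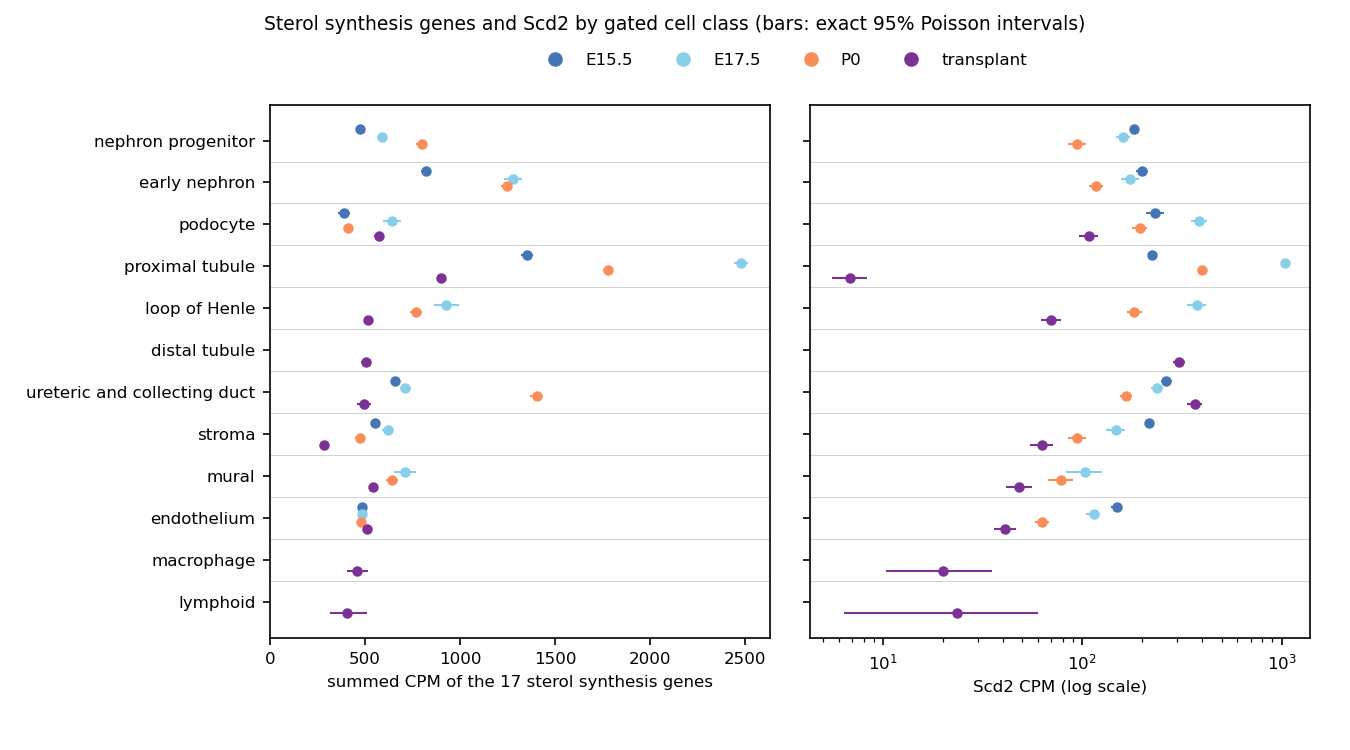
Summed CPM of the 17 sterol synthesis genes (left, linear axis) and CPM of Scd2 (right, log axis) in each gated class of at least 50 cells, by library, with exact 95% Poisson intervals. Proximal tubule cells have the highest sterol sum in each library, between 900 and 2481 CPM, and their Scd2 level is 1038 CPM in E17.5 and 6.86 CPM in the transplant.

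Set against all other gated cells of the same library, proximal tubule cells had 17 of 17 sterol synthesis genes higher in E15.5 and E17.5, 16 in P0 and 11 in the transplant. Of these, 8, 13, 9 and 6 were at least 2-fold higher, where between 10.8% and 12.6% of all genes were at least 2-fold higher. Hmgcs1, the cytosolic HMG-CoA synthase, was at 496 CPM in proximal tubule cells against 63.8 CPM in the other gated cells of E15.5 (7.77-fold), 873 against 116 CPM in E17.5 (7.51-fold), 609 against 130 CPM in P0 (4.70-fold) and 309 against 81.3 CPM in the transplant (3.80-fold, 3.61 to 4.01). Nsdhl, a sterol dehydrogenase, was 3.80-fold, 5.71-fold, 3.73-fold and 2.69-fold higher in the same order. Mvd, the mevalonate diphosphate decarboxylase, was 2.81-fold, 4.08-fold, 2.75-fold and 3.34-fold higher.

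Not every member followed. Insig1 was 1.49-fold and 1.55-fold higher in proximal tubule cells of E15.5 and E17.5, but was at 51.2 CPM against 85.4 CPM in P0 (ratio 0.600) and 6.04 against 16.9 CPM in the transplant (ratio 0.358). Acaca was below the other cells in E15.5, E17.5 and the transplant, with ratios of 0.570, 0.751 and 0.558, and its interval included 1 in P0. In the transplant Mvk, Pmvk, Fdps, Fdft1 and Msmo1 were also lower in proximal tubule cells than in the other gated cells, with ratios between 0.768 and 0.842, while the interval of Idi1 (0.864) included 1. Srebf1 was at a ratio of 0.505 there.

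**Figure D4:**
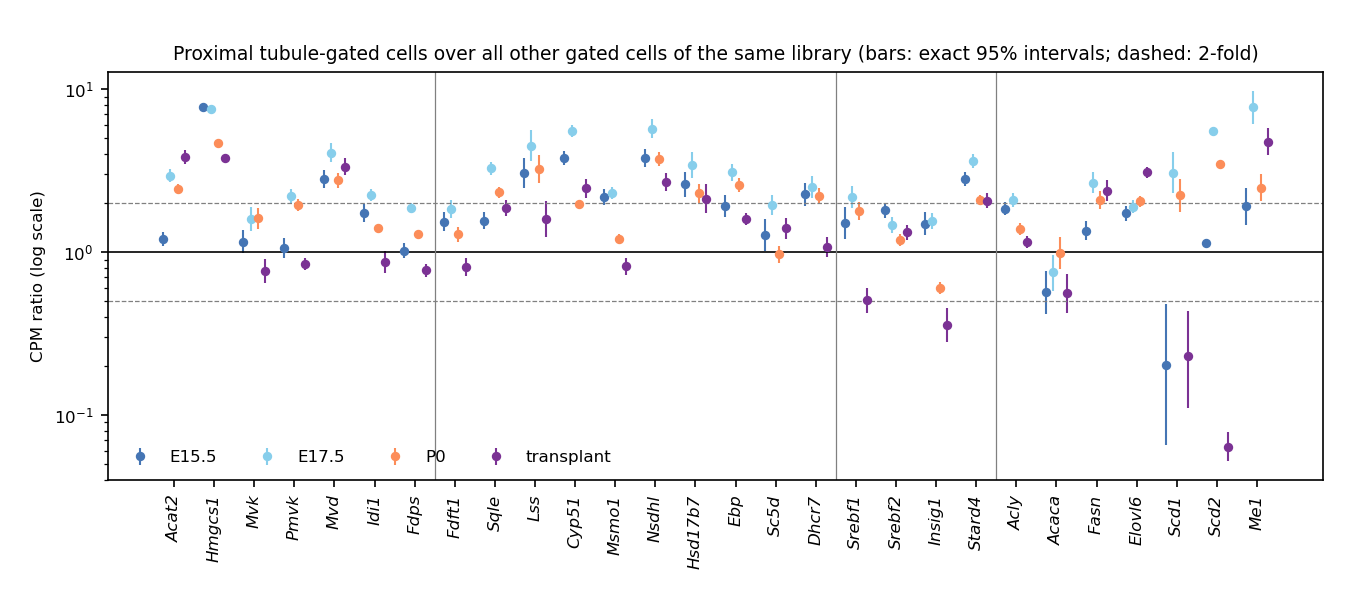
Ratio of CPM in proximal tubule-gated cells to CPM in all other gated cells of the same library (log axis, exact 95% intervals, dashed lines at 2-fold) for the 28 genes. Hmgcs1 lies between 3.80 and 7.77 in the 4 libraries, and Scd2 lies at 5.50 in E17.5 and at 0.0641 in the transplant.

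By the class median of the sterol synthesis genes (-1.30), the proximal tubule was also where the transplant stood furthest below E17.5. There 27 of 28 members were lower than in E17.5, and 19 passed the threshold downward (background 5.79% of 11850 genes) with none upward (background 12.8%). Among the sterol synthesis genes 13 of 17 passed, with Idi1 at 128 CPM in E17.5 and 17.4 CPM in the transplant (7.39-fold lower), Cyp51 at 239 and 38.2 CPM (6.24-fold lower) and Msmo1 at 151 and 25.0 CPM (6.05-fold lower). Insig1 was at 71.0 and 6.04 CPM, 11.8-fold lower (9.36 to 14.9). Elovl6, the elongase of long-chain saturated fatty acids, was the exception at 111 and 113 CPM, with an interval of the ratio from 0.933 to 1.11.

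Against P0, 12 members passed downward in proximal tubule cells (background 6.38% of 12143 genes) and none upward (background 11.5%, either way 17.9%). Insig1 was 8.48-fold lower (6.78 to 10.7), Idi1 5.92-fold, Msmo1 4.21-fold and Cyp51 3.93-fold lower. Me1 had the highest ratio, at 15.7 CPM in P0 and 28.3 CPM in the transplant (1.80-fold), followed by Elovl6 at 1.32-fold and Ebp at 1.12-fold, the last running from 0.969 to 1.31 over the processing alternatives. The dissociation stress genes had a median log2 ratio of -0.66 against P0 and -0.10 against E17.5 in these cells.

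Scd2 in proximal tubule cells gave the largest ratio of any member in the 3 comparisons. It was at 225 CPM in E15.5 (1213 UMIs), 1038 CPM in E17.5 (7293 UMIs), 400 CPM in P0 (5100 UMIs) and 6.86 CPM in the transplant (100 UMIs). The ratio of these levels put the transplant 58.3-fold below P0 (47.9 to 71.9) and 151-fold below E17.5 (124 to 186). At an equal depth of 2000 UMIs per cell, 13 of 1027 proximal tubule cells of the transplant held an Scd2 UMI (1.27%, exact binomial interval 0.676% to 2.15%), against 52 of 186 in E15.5 (28%), 444 of 681 in E17.5 (65.2%) and 323 of 774 in P0 (41.7%). Without thinning the shares were 8.57% in the transplant and 81.2%, 86.8% and 80.1% in the others, with median depths of 12191, 25357, 9513 and 14659 UMIs per cell. Blood cells of the transplant, used as a reference for free RNA, held an Scd2 UMI in 3 of 95 macrophage-gated cells (3.16%, 0.656% to 8.95%, median depth 5500) and 3 of 52 lymphoid-gated cells (5.77%, 1.21% to 15.9%, median depth 2782). Without thinning their shares were 11.6% and 7.69%, and their Scd2 levels were 20.1 and 23.5 CPM. The interval of the share in proximal tubule cells overlapped both of theirs. With 3 positive cells in each reference the overlap cannot decide whether the share is above background. Whether the reference cells held Scd2 RNA of their own was not tested. If the transplant level is background, both fold values are lower bounds of the difference.

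Other tubule segments of the transplant held more Scd2. Its level was 306 CPM in distal tubule cells, where 45.2% of 228 thinned cells held a UMI, and 367 CPM in ureteric and collecting duct cells, where 37.6% of 85 did. In the latter class it was 264, 236 and 166 CPM in E15.5, E17.5 and P0, so that the transplant was 2.20-fold above P0 (1.97 to 2.46), or 1.67-fold to 2.53-fold over the 10 alternatives, so that it fell under the 2-fold threshold in some. In loop of Henle cells it was 375 CPM in E17.5, 182 CPM in P0 and 69.8 CPM in the transplant. In podocytes it was 231, 385, 194 and 108 CPM in E15.5, E17.5, P0 and the transplant, in stroma 217, 147, 94.0 and 62.9 CPM, and in endothelium 149, 114, 62.7 and 41.0 CPM. Stroma and endothelium thus had lower values in each library of that order, whereas the proximal tubule, loop of Henle and podocytes were highest in E17.5. Nephron progenitors held 181, 160 and 93.9 CPM and early nephron cells 199, 174 and 117 CPM in E15.5, E17.5 and P0, and mural cells 103, 78.1 and 48.1 CPM in E17.5, P0 and the transplant. Scd1, a paralog on the same chromosome, was far sparser. In proximal tubule cells it had 5, 99, 133 and 11 UMIs, or 0.928, 14.1, 10.4 and 0.755 CPM, in E15.5, E17.5, P0 and the transplant. Scd1 and Scd2 are close paralogs, and how reads shared between them were assigned is not given in the sources used here.

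Ureteric and collecting duct cells separated the sterol from the fatty acid genes. Against P0, 14 of 17 sterol synthesis genes were lower in the transplant and 10 passed the threshold, with Cyp51 at 178 CPM in P0 and 17.7 CPM in the transplant (10.1-fold lower, 6.77 to 15.6), Idi1 at 159 and 20.5 CPM (7.77-fold lower) and Sqle, the squalene epoxidase, at 73.8 and 14.1 CPM (5.22-fold lower). Insig1 was at 141 and 14.1 CPM, 9.97-fold lower (6.41 to 16.4). All 6 fatty acid synthesis genes with enough UMIs were higher, though Acaca ran from 0.821 to 1.44 over the alternatives. Acly, the ATP citrate lyase, was at 34.9 and 61.5 CPM (1.76-fold, 1.34 to 2.29) and Fasn at 23.6 and 41.7 CPM (1.76-fold, 1.27 to 2.44). In all, 11 members passed downward (background 9.49% of 10619 genes) and 1, Scd2, upward (background 24.5%, either way 34.0%), though not under every alternative. Only 85 cells of the transplant carried this gate, and the median of all genes was 0.40 on the log2 scale. The median of the 6 fatty acid synthesis genes was 0.67. Against E17.5 5 members passed downward (background 8.79%), Sqle lowest at 3.43-fold lower, and 1 upward (background 15.3%), Me1 at 9.98 and 20.5 CPM (2.05-fold). The Me1 ratio rested on 34 UMIs in E17.5 and 29 in the transplant. It ran from 1.82 to 2.40 over the alternatives, so it fell under the 2-fold threshold in some.

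Stromal cells of the transplant had the lowest Idi1 level of any class and library. It had 350, 92, 96 and 3 UMIs in E15.5, E17.5, P0 and the transplant, or 23.1, 41.1, 25.9 and 0.842 CPM. The ratio to P0 was 0.0325 (0.00660 to 0.0980) and the ratio to E17.5 was 0.0205 (0.00415 to 0.0618). In this class 10 members passed downward against P0 (background 7.57% of 11042 genes) and none upward (background 14.4%), and 13 downward against E17.5 (background 8.68%) with none upward (background 10.9%). The highest ratios were those of Acaca against P0 (8.08 and 13.8 CPM, 1.70-fold) and of Srebf1 against E17.5 (11.6 and 16.6 CPM, 1.43-fold, interval 0.885 to 2.36). The stroma gate may hold unlike cells in these libraries. Its median own-marker count was 24 UMIs in the transplant and 10 in E17.5 and P0. The proliferation genes had median log2 ratios of -2.56 against P0 and -2.98 against E17.5 there. Cells of the host and of the explant were not told apart, and their part was not tested.

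In loop of Henle cells 8 members passed downward against P0 (background 4.47%) and 12 against E17.5 (background 4.13%), with Insig1 6.88-fold lower than in P0 and Scd2 5.38-fold lower than in E17.5, and none upward (backgrounds 17.4% and 14.4%). In mural cells 4 passed downward in each comparison (backgrounds 4.98% and 5.25%), with Insig1 4.36-fold and 2.61-fold lower, and 0 and 3 upward (backgrounds 13.7% and 13.4%). In podocytes 3 and 5 passed downward (backgrounds 9.06% and 6.24%), and 1 upward each time (backgrounds 10.4% and 7.15%), namely Ebp at 32.5 CPM in P0, 44.5 CPM in E17.5 and 95.4 CPM in the transplant (2.94-fold and 2.14-fold higher). The lowest podocyte ratios were those of Fasn against P0 (3.77-fold lower) and Scd2 against E17.5 (3.58-fold lower). In endothelium none passed either way against P0 (backgrounds 14.0% and 7.15%), with Ebp highest at 1.82 and Insig1 lowest at 0.529. Against E17.5, 2 passed upward (background 11.1%) and 3 downward (background 5.80%) in endothelium, Scd2 lowest at 2.78-fold lower. Those upward were Scd1 (2.0-fold, 1.08 to 3.86) and Me1, at 2 UMIs in E17.5 and 22 in the transplant (ratio 9.79, 2.41 to 85.9).

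Over the 7 classes compared, Idi1, Cyp51, Insig1 and Srebf2 were lower in the transplant than in P0 and than in E17.5 in every class. Ebp was higher than in P0 in all 7 and higher than in E17.5 in 6, the exception being the proximal tubule with a ratio of 0.860. Srebf2 ratios lay between 0.352 and 0.719 against P0 and between 0.347 and 0.745 against E17.5, lowest in stroma both times. Stard4, a carrier that moves cholesterol between membranes, was lower than in P0 in all 7 (0.246 to 0.734) and higher than in E17.5 only in ureteric and collecting duct cells (1.20, or 0.960 to 1.25 over the alternatives). Srebf1 did not follow, being higher in 5 of 7 classes in each comparison and lowest in the proximal tubule, at 0.351 and 0.267. Against E17.5, the higher classes included podocytes, where Srebf1 was nearly level at 24.3 CPM in E17.5 and 24.6 CPM in the transplant. They also included ureteric and collecting duct cells, where its ratio ran from 0.872 to 1.25 over the alternatives. The class median of the sterol synthesis genes ran from -1.17 in ureteric and collecting duct cells to 0.49 in podocytes against P0, and from -1.30 in the proximal tubule to 0.07 in endothelium against E17.5, on the log2 scale.

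Across the 35 points formed by a class in a library, the members with the widest range of CPM were Idi1, Scd2, Me1, Stard4 and Insig1. Idi1 outside the classes already given was at 76.8, 134 and 124 CPM in early nephron cells and 32.9, 54.0 and 91.0 CPM in nephron progenitors of E15.5, E17.5 and P0. In endothelium it hardly varied, at 33.9, 36.9, 37.8 and 31.8 CPM in E15.5, E17.5, P0 and the transplant. It was at 22.2, 42.8, 21.9 and 17.6 CPM in podocytes. In loop of Henle cells it was at 62.3, 59.3 and 19.7 CPM and in mural cells at 56.4, 52.0 and 23.4 CPM in E17.5, P0 and the transplant. Values in the transplant classes not compared were 21 CPM in distal tubule, 15.1 CPM in macrophages and 17.6 CPM in lymphoid cells (3 UMIs), beside 0.842 CPM in stroma.

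Stard4 was at 97.1, 135, 108 and 51.6 CPM in proximal tubule cells, at 97.8, 68.3, 80.6 and 59.1 CPM in endothelium and at 61.4, 45.5, 79.9 and 54.4 CPM in ureteric and collecting duct cells of E15.5, E17.5, P0 and the transplant. Podocytes held 5.23, 10.1, 8.75 and 3.52 CPM and stroma 19.4, 13.0, 14.8 and 3.65 CPM. Nephron progenitors held 12.7, 15.8 and 25.2 CPM and early nephron cells 37.5, 29.9 and 61.4 CPM in E15.5, E17.5 and P0. Loop of Henle cells held 24.2, 27.6 and 11.9 CPM and mural cells 22.6, 23.0 and 10.7 CPM in E17.5, P0 and the transplant. In the transplant, distal tubule cells held 30.2 CPM, macrophages 8.37 CPM and lymphoid cells 11.7 CPM.

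Me1 was at 13.9, 39.7, 15.7 and 28.3 CPM in proximal tubule cells of E15.5, E17.5, P0 and the transplant. Ureteric and collecting duct cells held 22.5, 9.98, 15.2 and 20.5 CPM, above the proximal tubule in E15.5 and close to it in P0. All other classes held 11.2 CPM or less, down to 2 UMIs (0.376 CPM) in endothelium of E17.5 and none in the 52 lymphoid cells. Early nephron cells had 11.1, 2.85 and 7.51 CPM and nephron progenitors 2.45, 1.70 and 4.99 CPM in E15.5, E17.5 and P0. Podocytes had 10.5, 9.23, 5.84 and 9.60 CPM, stroma 7.98, 11.2, 4.58 and 6.74 CPM and endothelium 0.872, 0.376, 2.31 and 3.68 CPM in E15.5, E17.5, P0 and the transplant. Mural cells had 2.26, 8.46 and 5.06 CPM and loop of Henle cells 1.15, 1.38 and 2.58 CPM in E17.5, P0 and the transplant, with 5.25 CPM in distal tubule and 3.35 CPM in macrophages of the transplant.

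Insig1 was at 27.0, 40.2, 64.9 and 19.4 CPM in stroma, 20.3, 34.3, 55.4 and 29.3 CPM in endothelium and 8.51, 67.1, 28.1 and 20.5 CPM in podocytes of E15.5, E17.5, P0 and the transplant. Early nephron cells held 30.8, 71.7 and 109 CPM and nephron progenitors 19.0, 51.5 and 155 CPM in E15.5, E17.5 and P0. P0 was thus the highest library in each of these classes except podocytes and, from the values above, the proximal tubule, where E17.5 was higher. Loop of Henle cells held 39.3, 54.8 and 7.96 CPM and mural cells 31.6, 52.8 and 12.1 CPM in E17.5, P0 and the transplant. The transplant's distal tubule, macrophage and lymphoid cells held 4.60, 25.1 and 11.7 CPM.

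Levels of the sterol pathway genes were also compared over these points, as a description without a test because points share libraries and depth. Spearman's rho of each sterol synthesis gene with the summed CPM of the other sterol synthesis genes over 35 points had a median of 0.66, from -0.04 for Ebp to 0.78 for Cyp51. Hmgcs1, Idi1, Sqle and Msmo1 were each at 0.77. Of the regulators, Srebf2 was at 0.82, Stard4 at 0.56, Insig1 at 0.54 and Srebf1 at 0.10. Fatty acid synthesis genes against the sterol sum ranged from 0.29 for Acaca to 0.63 for Elovl6, with a median of 0.40. Pmvk (0.19) and Mvk (0.26) had the lowest values among the mevalonate genes. Within single libraries the relation was not equally close. The median over the 17 sterol synthesis genes was 0.82 in E15.5 (7 points), 0.67 in E17.5 (9 points), 0.82 in P0 (9 points) and 0.27 in the transplant (10 points). In the transplant the values ran from -0.12 for Ebp to 0.71 for Sqle, with Srebf2 at 0.47 and Insig1 at -0.22.

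Within a class, cells with at least 2 UMIs of the 10 proliferation genes at equal depth were compared with cells holding none, where both kinds numbered 50 or more. Cycling nephron progenitors had more of the sterol genes. In E15.5, 153 cycling and 206 other cells gave 16 of 17 sterol synthesis genes higher with a median log2 ratio of 0.58, beside 0.01 for all genes. In E17.5 (120 and 226 cells) 13 of 16 were higher with a median of 0.85, and in P0 (73 and 194 cells) 15 of 17 with a median of 0.51. Of all genes, 4.93%, 5.17% and 5.22% were at least 2-fold higher in cycling progenitors of E15.5, E17.5 and P0. The share of all genes higher by any amount is not given here, so the counts of higher genes have no background. Msmo1 was at 42.0 CPM in cycling and 12.2 CPM in other progenitors of E15.5 (3.45-fold, 2.56 to 4.71) and at 86.1 and 27.7 CPM in those of E17.5 (3.11-fold, 2.21 to 4.44), but at 141 and 103 CPM in P0 (1.36-fold). Cycling progenitors were also deeper, with medians of 32253 against 22724.5 UMIs in E15.5, 10981 against 6797.5 in E17.5 and 16173 against 11368 in P0. The part of depth in these ratios was not tested.

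The same split in proximal tubule cells of E17.5 (66 cycling, 537 other) went the other way. All 17 sterol synthesis genes were lower in cycling cells, 10 of them at least 2-fold (background 10.1%), with a median log2 ratio of -1.02 beside 0.06 for all genes. Hmgcs1 was at 438 CPM in cycling and 945 CPM in other cells, Cyp51 at 108 and 264 CPM, and Scd2 at 299 and 1187 CPM (ratio 0.252, 0.221 to 0.286). Cycling cells were again the deeper ones, with a median of 11477.5 against 9536 UMIs. Stroma of E15.5 had 1 of 17 sterol synthesis genes higher in cycling cells (median -0.26), endothelium of E15.5 had 3 of 17 (median -0.47), and early nephron cells of P0 had 16 of 17 (median 0.43). The remaining splits had no common direction. Stroma had 4 of 16 higher in E17.5 (median -0.37) and 9 of 16 in P0 (median 0.06). Endothelium had 9 of 16 in E17.5 (median 0.09), 7 of 17 in P0 (median -0.11) and 5 of 15 in the transplant (median -0.28). Mural cells of the transplant had 9 of 17 (median 0.05) and ureteric and collecting duct cells of E17.5 had 7 of 16 (median -0.01). For these splits too, the counts of higher genes have no share of all genes beside them.

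Other genes of the pathway, 29 for sterol handling and 29 for fatty acid and lipid assembly, placed the members in context. At P0 against E15.5, 3 of the 29 sterol handling genes passed upward (background 12.8%) and 0 downward (background 8.22%). Ch25h, the cholesterol 25-hydroxylase, was at 0.598 and 5.34 CPM (8.93-fold) and Abcg1, a sterol exporter, at 2.36 and 6.15 CPM (2.61-fold), while Tm7sf2 and Lrp8 had the lowest ratios at 0.523 and 0.551. Of the 29 lipid assembly genes 4 passed upward and 1 downward, beside the same backgrounds, with Elovl7 and Lpin1 named as the highest (2.62-fold and 2.15-fold) and G6pdx and Mcat as the lowest (0.460 and 0.541) among those with 50 or more UMIs.

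In the transplant, the receptor Lrp8 was low and the sterol sensor Nr1h3 and the apolipoprotein Apoe were high. Lrp8 was 5.45-fold lower than in P0 and 5.98-fold lower than in E17.5. Nr1h3, which encodes the sterol sensor LXR alpha, was at 1.71 CPM in P0, 1.52 CPM in E17.5 and 6.11 CPM in the transplant (3.58-fold and 4.01-fold higher). Apoe, the apolipoprotein, was at 176, 200 and 567 CPM (3.22-fold higher than P0), and Cyp27a1, the sterol 27-hydroxylase, was 3.11-fold higher than E17.5. These are levels over all cells of a library, and the summed level of the 7 macrophage markers was 8.41 CPM in P0, 91.9 CPM in E17.5 and 410 CPM in the transplant. The part of macrophages in these values was not tested. By class, Apoe was 2.81-fold higher than P0 in proximal tubule cells, at 251 and 705 CPM, but lower in endothelium (365 and 108 CPM), loop of Henle (1178 and 254 CPM) and ureteric and collecting duct cells (91.2 and 23.3 CPM). Nr1h3 was at 4.95 and 12.4 CPM in proximal tubule cells (2.50-fold higher). In each comparison 4 of 29 sterol handling genes passed upward and 5 downward, beside backgrounds of 21.1% upward and 9.08% downward against P0 and 16.3% and 8.19% against E17.5. Of the lipid assembly genes, 10 passed upward and 1 downward against P0, and 6 and 1 of the 28 that reached 20 UMIs against E17.5, beside the same backgrounds. Oxsm and Thrsp had the highest ratios against P0 (3.58 and 3.56), Mlxipl and Thrsp against E17.5 (3.01 and 2.88). Acsl3, an acyl-CoA synthetase, was lowest at 2.38-fold and 3.13-fold lower, ahead of Hsd17b12 (0.657) against P0 and Fads2 (0.550) against E17.5.

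In proximal tubule cells, the following were chosen after their values were seen. Abca1, a sterol exporter, was at 1.81 CPM in P0, 2.42 CPM in E17.5 and 12.1 CPM in the transplant (6.69-fold and 4.99-fold higher). Plin2, a lipid droplet coat protein, was at 35.0, 31.5 and 101 CPM in the same order (2.90-fold and 3.22-fold higher). Ch25h was 7.40-fold lower than in P0. Fads1, a fatty acid desaturase, was 2.84-fold and 3.29-fold lower and Acsl3 2.78-fold and 5.19-fold lower than in P0 and E17.5.

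Reads of Fdft1, Cyp51 and Srebf1 may include those of genes annotated on the opposite strand at the same place (Ctsb, Akap9 and Rai1 in GENCODE M21), because how strand was used in counting is not given in the sources used here. Insig1 lies on chromosome 5 from 28071363 to 28078662, Idi1 on chromosome 13 from 8885501 to 8892451, Hmgcs1 on chromosome 13 from 119690379 to 119708260, Cyp51 on chromosome 5 from 4081145 to 4104746, Msmo1 on chromosome 8 from 64718139 to 64733792 and Scd2 on chromosome 19 from 44293674 to 44306864 in GRCm38.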

How the data were processed

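Single-cell 3′ libraries (10x Chromium Single Cell 3′ v2, per the labels' protocols) were deposited as whole-number UMI counts per gene and cell. The authors made these counts with Cell Ranger, versions 3.0.2 (E15.5, P0) and 3.1.0 (E17.5, transplant) per the file headers, and with GRCm38 per the submitters' processing notes. The handling of strand and of reads shared between genes is not given in the sources used here.

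Barcodes under 500 genes or above 20% mitochondrial UMIs were dropped. The remaining cells were ranked by Scrublet doublet score and the highest-scoring ones removed. Their number was preset from the size of the library (0.8% per 1000 cells) and was not a doublet call by Scrublet. It came to 102, 167, 524 and 350 cells in E15.5, E17.5, P0 and the transplant. How many of these were doublets was not tested. Counts were summed over cells and scaled to CPM. Cell classes were gated on marker genes after thinning to 2000 UMIs. The gate was run on simulated cells with markers of only their own class or none, and the intervals on simulated Poisson counts. These simulations held no spread between cells and no free RNA, so they do not test the gate or the intervals against either. CPM intervals are exact Poisson, ratio intervals exact conditional binomial and shares exact Clopper-Pearson, all at 95%. The cells used held 86983264, 38715825, 86695752 and 53176747 UMIs in E15.5, E17.5, P0 and the transplant. Described in full were the 3 highest and 3 lowest members by ratio among those with at least 50 UMIs, the highest and lowest per class, and the 5 with the widest range over classes. Of the other pathway genes, the 2 highest and 2 lowest were named in all cells, except that some genes counted in these lists are not reported here. The members and lists were chosen with earlier results of these data known. Alternatives changed the cell filters, scaling, count minimum and gate. Python 3.11.15, numpy 2.4.6, scipy 1.17.1, pandas 2.3.3, scanpy 1.11.5 and matplotlib 3.10.9 were used.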

Additional observations from a re-analysis of the deposited data

Results flagged for a closer look

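For 3 genes the transplant stood at least 2-fold above another library in 1 class and at least 2-fold below it in another, each with an interval that excluded 1. The difference between the classes was not tested, because each library is 1 sample. Scd2 was 2.20-fold higher in the transplant than in P0 in ureteric and collecting duct cells (1.97 to 2.46), or 1.67-fold to 2.53-fold over the alternatives. Its ratio was 0.0171 in proximal tubule cells (0.0139 to 0.0209), where the transplant level was not told apart from background. Dhcr7, the last reductase of cholesterol synthesis, was 2.41-fold higher in the transplant than in E17.5 in mural cells (1.04 to 6.84), and its ratio was 0.476 in proximal tubule cells (0.404 to 0.560). The mural ratio rested on 6 UMIs in E17.5 and 58 in the transplant. The proximal tubule ratio of Dhcr7 ran from 0.432 to 0.573 over the alternatives, so it missed the 2-fold threshold in some. Scd1 was 2.0-fold higher in the transplant than in E17.5 in endothelium (1.08 to 3.86), and its ratio was 0.0536 in proximal tubule cells (0.0259 to 0.100).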

How the results depend on the processing

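No paired analysis was possible because each condition has 1 library. For the same reason no library could be left out. In all cells, the 6 median log2 ratios (sterol or fatty acid synthesis genes in 3 comparisons) kept their sign under all 8 alternatives run, and 34 of 48 values stayed close to the main one. For P0 over E15.5, the sterol median of 0.39 was 0.27 with mitochondrial, ribosomal, haemoglobin and stress genes left out of the total and 0.28 as a mean over cells, and the fatty acid median of -0.12 was -0.24 with those genes left out. For transplant over P0, the sterol median of -0.45 was -0.80 when centred on all genes, -0.66 with those genes left out and -0.30 as a mean over cells, and the fatty acid median of -0.20 was -0.55, -0.41 and -0.36 under the same settings. For transplant over E17.5, the sterol median of -0.72 was -0.94 when centred and -0.90 with those genes left out, and the fatty acid median of -0.41 was -0.63, -0.59 and, as a mean over cells, -0.54. Centring and the left-out genes change the scale of every gene alike, and for the mean over cells the cause was not tested. In gated classes, 18 of 414 values, in 9 of 42 medians, changed sign, 4 of them by centring, and the main values of these medians were at most 0.46 in size. The gate of 5 UMIs from 3 markers gave no value for classes left with fewer than 50 cells. Classes with few UMIs limit single genes: Idi1 in transplant stroma rested on 3 UMIs.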
